A study of Rattus norvegicus with 28 samples.

Results

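The SLC25 family, the mitochondrial solute carriers, was measured in kidneys of female rats of 2 strains, with both kidneys in place or 4 months after removal of 1. A gene was taken as a member when its symbol in the array's probe annotation was Slc25a followed by a number only, and each gene was read by the probe set that was brightest on average across the 28 arrays. The rule gave 39 genes, with 57 probe sets between them, among 14217 genes read the same way. Of the 39, 27 had 1 probe set and 12 had several. A pair of probe sets that the annotation assigns to more than 1 gene, named Slc25a51, fell outside the rule, so that gene is not described.

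The groups were uninephrectomized SBH/y, sham-operated SBH/y with 2 kidneys, uninephrectomized SBN/y and sham-operated SBN/y with 2 kidneys, each with 7 arrays. SBH/y and SBN/y are the inbred Sabra strains known to develop and to resist salt-sensitive hypertension, and SBH/y is also known for proteinuria. All rats were female, entered the study after weaning, ate standard chow and were killed at 5 months of age. In the uninephrectomized groups the right kidney had been removed. Whether the arrays of a group stem from different animals is not stated, so p-values reflect only variation among these samples, which may be technical.

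Carriers of this family are small proteins of the inner mitochondrial membrane that swap metabolites, nucleotides, phosphate or cofactors between cytosol and matrix. They are encoded in the nucleus, and most are brought into the membrane by the TIM22 import route. Proximal tubule cells, which make up much of the renal cortex, are packed with mitochondria and burn fatty acids, lactate and glutamine to drive sodium transport. In that tissue the carriers link respiration, gluconeogenesis, ammonia formation and the use of amino acids.

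The values are log2 values as RMA, an array normalization, gives them, so they show differences between arrays of 1 probe set and not amounts that can be set against another probe set. Array medians ranged from 5.72 to 5.77, and no pair of arrays correlated below 0.9855. Kidney markers were bright, with a mean log2 value of 12.50 for the proximal tubule receptor Lrp2, 13.25 for Umod of the thick ascending limb and 11.79 for Aqp2 of the collecting duct, while adrenal steroid genes lay between 2.87 and 4.23. In a whole kidney, fewer cells of a type and less RNA per cell cannot be told apart. A score of 11 clock genes (3 activators such as Bmal1 minus 8 genes of the opposite phase) lay between -1.21 and -0.79 on 6 of the 7 uninephrectomized SBH/y arrays and on replicate 6 of uninephrectomized SBN/y. On the other 21 arrays the score lay between -0.28 and 0.68. Clock phase and uninephrectomy in SBH/y therefore cannot be told apart on 6 of 7 arrays. The sham-operated groups differed in the score too, with 0.44 to 0.68 in SBH/y and -0.28 to 0.47 in SBN/y. How far clock phase enters the strain differences with both kidneys was not tested. The called members of comparisons with uninephrectomized SBH/y are also given without the 7 arrays apart in clock genes, which leaves 1 array in that group. In that setting the calls fell over all 31042 probe sets too, to 1199, against 6663, between strains after uninephrectomy, to 15, against 2558, for uninephrectomy in SBH/y and to 1, against 439, for the interaction.

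Of the 39 members, 33 had a mean above the highest array median and 6 lay below the lowest. The brightest probe sets were those of Slc25a5, the adenine nucleotide translocase of most tissues, at 12.95, and of the phosphate carrier Slc25a3, at 12.30. Next came Slc25a39 at 10.78, Slc25a4 at 10.71, the dicarboxylate carrier Slc25a10 at 10.64, the oxoglutarate carrier Slc25a11 at 10.54 and the aspartate-glutamate carrier Slc25a13 at 10.26. The 6 low members were Slc25a32 at 4.94, Slc25a53 at 4.66, Slc25a41 at 4.45, Slc25a18 at 4.24, Slc25a27 at 3.77 and Slc25a31, an isoform known from testis, at 3.43. Signal over background was not measured, so a missing call for these 6 does not show that their RNA was unchanged. RefSeq lists 9 pseudogenes named after Slc25a5, 8 after Slc25a39 and 2 after Slc25a3, and signal from near-identical copies on these probe sets could not be set apart.

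**Figure D1:**
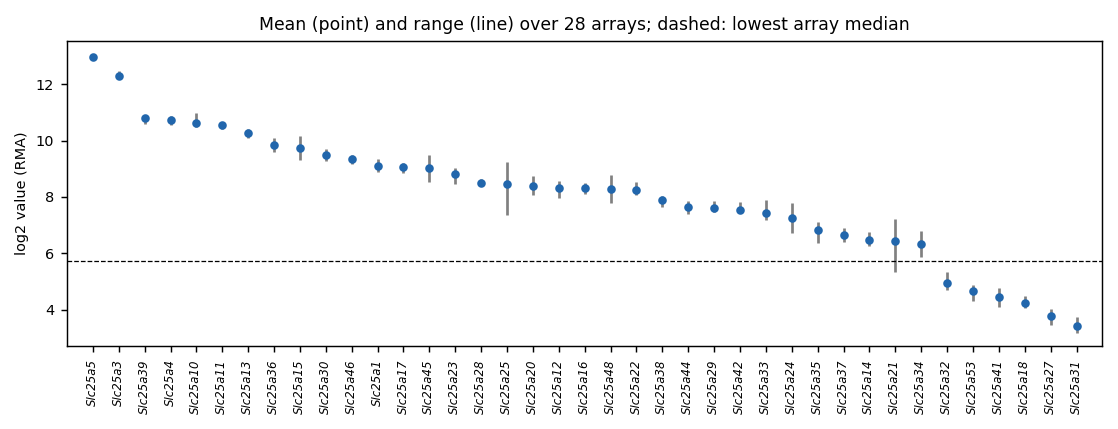
Mean log2 value (point) and range over the 28 arrays (line) of each of the 39 carriers, with the lowest array median of 5.72 dashed. The longest lines are those of Slc25a21 and Slc25a25, and 6 carriers lie below the dashed line.

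A total of 20 members passed the threshold (adjusted p under 0.05 in limma, adjusted by Benjamini-Hochberg over 31042 probe sets) in at least 1 of 5 comparisons, and 19 in none. With both kidneys in place, 11 of 39 differed between the strains, 6 higher and 5 lower in SBH/y. Over all 14217 genes 21.5% were called in that comparison, 11.8% higher and 9.69% lower. After uninephrectomy, 13 of 39 differed between the strains, 6 higher and 7 lower in SBH/y, where 26.8% of all genes were called, 14.9% higher and 11.9% lower. Uninephrectomy was followed by 3 higher and 3 lower members in SBH/y, against 10.4% of all genes called, 4.85% higher and 5.51% lower. In SBN/y 1 member was higher and 0 lower, against 0.605% of all genes, 0.288% higher and 0.317% lower, with 4 members at an unadjusted p under 0.05. The uninephrectomy effect differed between the strains for 1 member, against 2.06% of all genes, 0.964% of them with a positive and 1.1% with a negative difference. The family's shares of called members were 28.2%, 33.3%, 15.4%, 2.56% and 2.56% in these 5 comparisons, where 2.56% stands for 1 member. The comparisons share arrays, and differences from the shares of all genes were not tested. Its median log2 difference was between -0.06 and 0.03 in the 5 comparisons, against -0.01 to 0.01 for all genes. After quantile normalization the splits were 6 higher and 9 lower between strains with both kidneys, 5 and 9 after uninephrectomy, and 5 and 3 for uninephrectomy in SBH/y. Over all probe sets that setting gave 2952 higher and 2870 lower, 3518 and 3526, and 1313 and 1462, against 2991 and 2579, 3454 and 3209, and 1033 and 1525 on the deposited values.

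**Figure D2:**
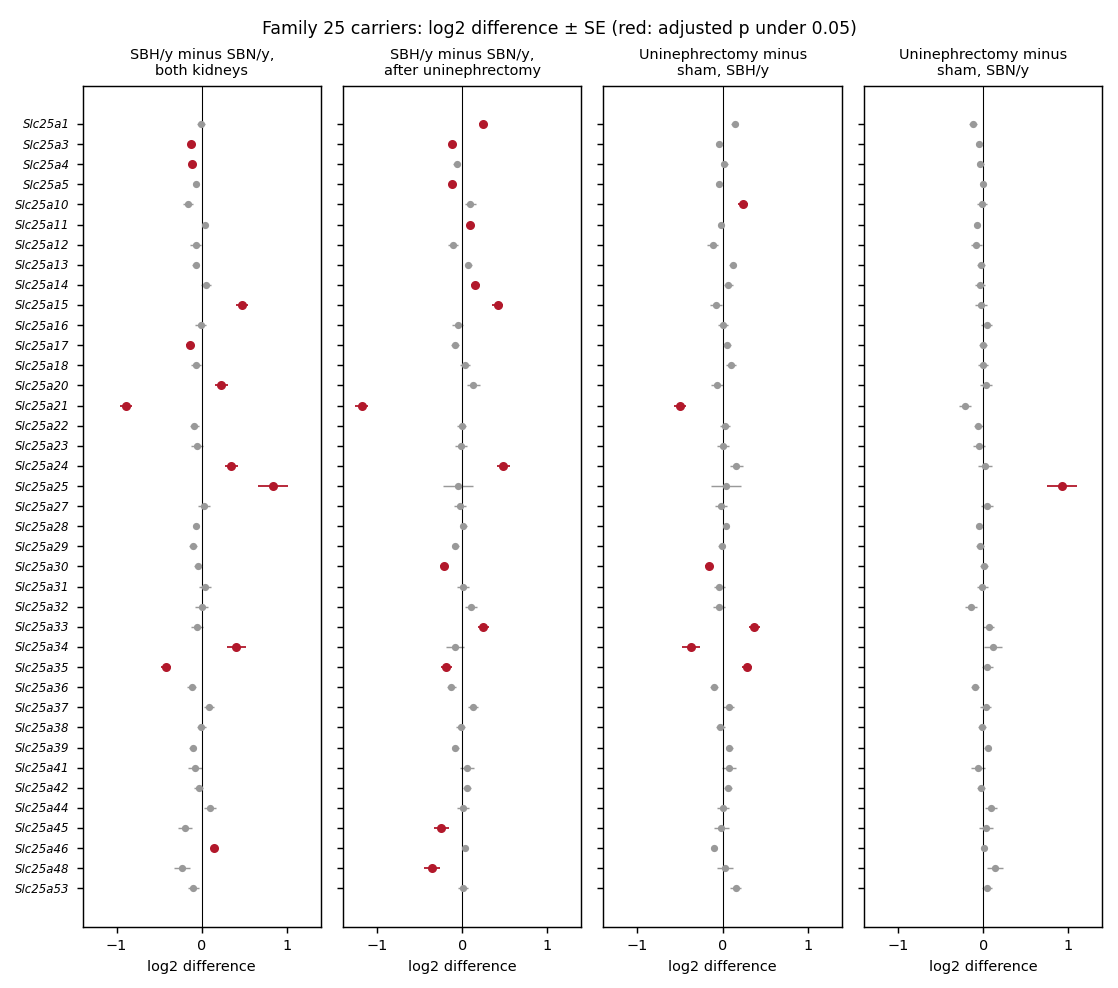
Log2 difference with its standard error for each of the 39 carriers in 4 comparisons, with called carriers in red. Most points lie within 0.25 of 0, and Slc25a21, Slc25a25, Slc25a15 and Slc25a24 stand out.

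Among the 4 carriers of ATP synthesis, 2 were lower in SBH/y in each state and 0 higher, by small amounts. Slc25a3 brings phosphate into the matrix, and Slc25a4 and Slc25a5 exchange the ADP and ATP that ATP synthase uses and makes. Slc25a3 averaged 12.26 ± 0.02 in SBH/y and 12.38 ± 0.07 in SBN/y with both kidneys in place (SD, n = 7 arrays each), a log2 difference of -0.12 ± 0.03 (SE, limma adjusted p = 0.009). After uninephrectomy it lay between 12.19 and 12.27 in SBH/y, against 12.31 to 12.37 in SBN/y, with a difference of -0.11 ± 0.03 (limma adjusted p = 0.0115), and the groups did not overlap. Slc25a5 lay between 12.84 and 12.92 in uninephrectomized SBH/y, against 12.95 to 13.03 in uninephrectomized SBN/y, again without overlap and with a difference of -0.11 ± 0.03 (limma adjusted p = 0.00545). With both kidneys its difference was -0.07 ± 0.03, not past the threshold. Slc25a4 was lower in SBH/y with both kidneys by a log2 difference of -0.11 ± 0.04 (limma adjusted p = 0.0494), a call lost when any of 21 arrays was left out and, at an adjusted p of 0.0645, when arrays were centred on their medians. In the fit that omits the 7 arrays apart in clock genes, the differences after uninephrectomy were -0.06 ± 0.08 for Slc25a3 and -0.08 ± 0.07 for Slc25a5, neither called. For uninephrectomy itself these carriers were called in neither strain, with differences between -0.05 and 0.02.

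Among the 741 pairs of members, deviations from the group means had a median correlation of 0.0231 over the 28 arrays and reached 0.726 for Slc25a23 and Slc25a48. The 3 pairs among Slc25a3, Slc25a4 and Slc25a5 were picked by role, with the data known. The deviations from the group means of Slc25a3 and Slc25a5 correlated over the 28 arrays with Pearson's r = 0.638 (permutation p = 0.00381 within groups, adjusted p = 0.00604 over 3 pairs) and Spearman's rho = 0.401 (permutation p = 0.0547). Without the 2 arrays farthest from the median of Slc25a3, r was 0.348. For Slc25a4 and Slc25a5, r was 0.565 and rho 0.563 (permutation p = 0.00417 and 0.00426). Without the 2 arrays farthest from the median of Slc25a4, r for this pair was 0.463. For Slc25a3 and Slc25a4, r was 0.546 and rho 0.381 (permutation p = 0.00604 and 0.0595). Without the 2 arrays farthest from the median of Slc25a3, r for this pair was 0.317. All 3 Pearson correlations were smaller without 2 arrays. The adjustment covered these 3 pairs and not all 741. All arrays share 1 normalization, and shuffling arrays within groups also breaks any effect that an array has on several genes. The p-values therefore do not set a link between these carriers apart from such an array effect. Of the 3 pairs, that of Slc25a4 and Slc25a5 had a Spearman p under 0.05.

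The ATP-Mg/phosphate carriers load net adenine nucleotide into the matrix, and most of them carry calcium-binding domains. Of the 4 measured, Slc25a25 and Slc25a24 differed, while Slc25a23 and the dim Slc25a41 were called in no comparison. Slc25a25 was low in 1 group only. Its lowest, median and highest log2 values were 8.39, 8.61 and 9.25 in uninephrectomized SBH/y and 8.47, 8.55 and 9.13 in sham-operated SBH/y. They were 8.25, 8.72 and 9.18 in uninephrectomized SBN/y, against 7.34, 7.64 and 8.97 in sham-operated SBN/y. The 6 low sham-operated SBN/y arrays ended at 7.84, below every array of the other groups, and replicate 1 of that group, at 8.97, lay within the range of the other groups.

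Uninephrectomy in SBN/y was followed by a higher Slc25a25 value, by 0.93 ± 0.17 log2 units (SE, n = 7 arrays each, limma adjusted p = 0.0114), the 1 called member of that comparison. The adjusted p was 0.0659 when the fit held only the 2 groups compared. In SBH/y the difference was 0.04 ± 0.17, with a 95% interval from -0.32 to 0.40. The difference between these effects was -0.89 ± 0.25 and missed the threshold (limma adjusted p = 0.063). Without replicate 1 of sham-operated SBN/y the effect in SBN/y was 1.12 ± 0.13 (limma adjusted p = 7.06e-05) and the difference between the strains' effects -1.08 ± 0.18 (limma adjusted p = 0.0025). With the 7 arrays apart in clock genes left out, that difference was -0.82 ± 0.41 (limma adjusted p = 1), and the effect in SBN/y 0.93 (limma adjusted p = 0.0303). Between strains with both kidneys in place, Slc25a25 was higher in SBH/y by 0.84 ± 0.17 (limma adjusted p = 0.000625). After uninephrectomy the strain difference was -0.05 ± 0.17.

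Slc25a25 is known in other mammals as a gene that responds to hormones and to cold, through cyclic AMP among other signals. Its promoter is shown for that reason, as the 250 bases before the gene's start in RefSeq (GRCr8, chr3:36116582-36116831, minus strand). Capitals mark a match to the cyclic AMP response element, TGACGTCA, which begins 158 bases before the start.
Slc25a25 promoter: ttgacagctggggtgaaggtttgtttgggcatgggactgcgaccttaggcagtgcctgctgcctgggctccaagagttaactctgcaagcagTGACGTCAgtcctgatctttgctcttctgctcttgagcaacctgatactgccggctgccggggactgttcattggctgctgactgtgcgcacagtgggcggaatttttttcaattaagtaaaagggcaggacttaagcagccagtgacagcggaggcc
The 8 letters TGACGTCA stand in 1.7% of 27457 promoters of this length, searched on both strands, and in 2 of the 34 member promoters in the table, those of Slc25a25 and Slc25a33. A match is a description of the sequence only. The clock score of the sham-operated SBN/y arrays lay between -0.28 and 0.47, and replicate 1, the high array for Slc25a25, had a score of 0.21, inside that range.

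Slc25a24 was higher in SBH/y in both states. With both kidneys its lowest, median and highest values were 7.23, 7.33 and 7.57 in SBH/y, against 6.88, 7.01 and 7.20 in SBN/y. After uninephrectomy they were 7.35, 7.50 and 7.77 in SBH/y, against 6.72, 7.05 and 7.30 in SBN/y. The strains did not overlap in either state, with log2 differences of 0.34 ± 0.08 (limma adjusted p = 0.00138) and 0.48 ± 0.08 (limma adjusted p = 1.31e-05). In the fit that omits the 7 arrays apart in clock genes, the difference after uninephrectomy was 0.30 ± 0.16 (limma adjusted p = 0.443). Macrophage markers were also higher in SBH/y, in 5 of 9 with both kidneys and 6 of 9 after uninephrectomy, with 1 of 9 lower in each. Over all genes, 11.8% and 14.9% were called higher in these comparisons. The median difference of the 9 after uninephrectomy was 0.62, and 0.23 without the 7 arrays. Lyz2 differed by 1.04 ± 0.07 and Itgax by 0.90 ± 0.08 with both kidneys. The mean of those 9 markers, each centred over all arrays, lay between 0.07 and 0.48 in uninephrectomized SBH/y and between -0.04 and 0.20 in sham-operated SBH/y. In SBN/y it lay between -0.28 and -0.11 after uninephrectomy and between -0.35 and 0.00 after sham operation. The part of macrophages in the Slc25a24 values was not tested. Slc25a17, the peroxisomal carrier of coenzyme A and other cofactors, was lower in SBH/y with both kidneys by -0.14 ± 0.05 (limma adjusted p = 0.033). Slc25a42, a coenzyme A carrier, and Slc25a16 were called in no comparison.

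**Figure D3:**
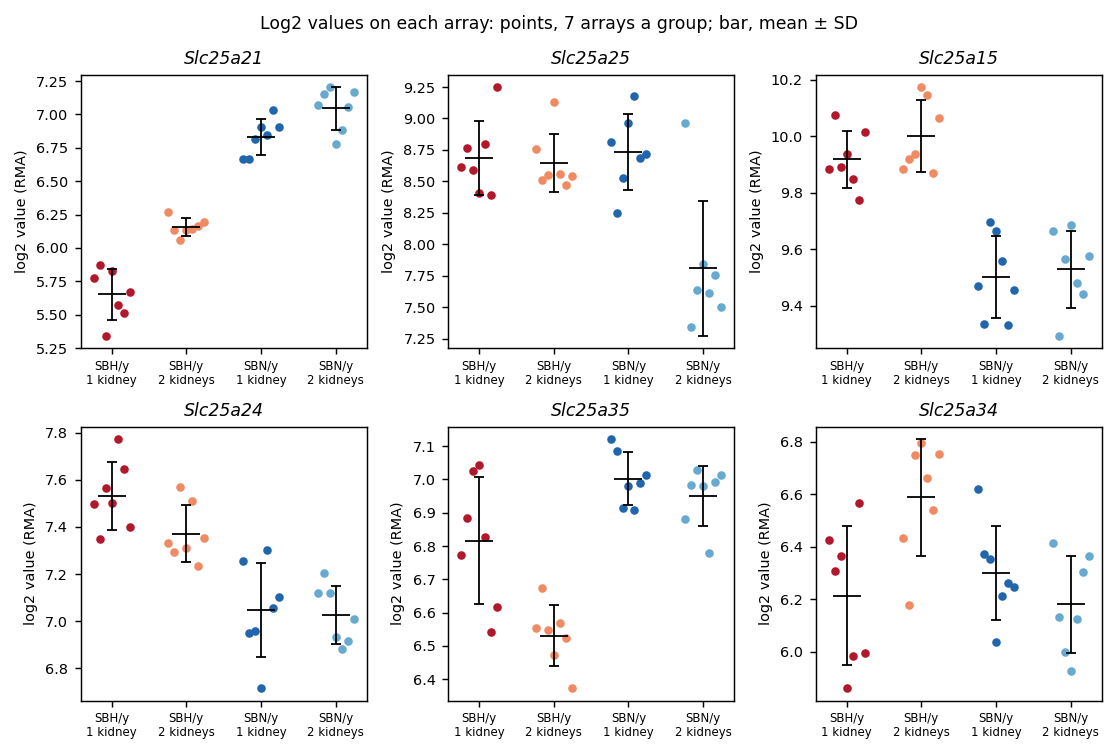
Log2 values of 6 carriers on each array (points, 7 per group), with the mean and SD of each group. Slc25a21 steps from group to group, Slc25a25 is low on 6 of 7 sham-operated SBN/y arrays, and Slc25a15 and Slc25a24 separate the strains.

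The carriers of carboxylates held the largest strain difference among the 39 members, that of Slc25a21. This carrier moves oxodicarboxylates such as oxoadipate, an intermediate of lysine and tryptophan breakdown. Its lowest, median and highest values were 5.34, 5.67 and 5.88 in uninephrectomized SBH/y and 6.06, 6.14 and 6.27 in sham-operated SBH/y. They were 6.66, 6.84 and 7.03 in uninephrectomized SBN/y and 6.78, 7.07 and 7.21 in sham-operated SBN/y. Every SBH/y array lay below every SBN/y array, and within SBH/y the uninephrectomized and sham-operated arrays did not overlap.

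The log2 difference of Slc25a21 between SBH/y and SBN/y was -0.89 ± 0.07 with both kidneys (limma adjusted p = 8.22e-11) and -1.18 ± 0.07 after uninephrectomy (limma adjusted p = 1.13e-13). Uninephrectomy in SBH/y was followed by a change of -0.50 ± 0.07 (limma adjusted p = 4.18e-05), and in SBN/y by -0.21 ± 0.07 (limma adjusted p = 0.297). The difference between the 2 effects, -0.29 ± 0.11, missed the threshold (limma adjusted p = 0.198). With the 7 arrays apart in clock genes left out, the effect in SBH/y was -0.28 ± 0.12 from 1 array (limma adjusted p = 1), and the strain difference after uninephrectomy -0.93 ± 0.13 (limma adjusted p = 3.41e-05). The 1 uninephrectomized SBH/y array not apart in clock genes, replicate 2, had the highest Slc25a21 value of its group, 5.88, which was still below all sham-operated SBH/y arrays. In uninephrectomized SBH/y the group mean of 5.65 lay under the array medians. Slc25a21 had 1 probe set, and the probe letters were not set against the sequences of the 2 strains, so a variant under the probes and a difference in expression cannot be told apart between strains. This limit does not touch the comparison within SBH/y.

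The 250 bases before the start of Slc25a21 (RefSeq, GRCr8, chr6:80437721-80437970, minus strand) are shown because this gene carried the largest strain difference of the 39. None of the 5 motifs searched was in this window, so it has no capitals.
Slc25a21 promoter: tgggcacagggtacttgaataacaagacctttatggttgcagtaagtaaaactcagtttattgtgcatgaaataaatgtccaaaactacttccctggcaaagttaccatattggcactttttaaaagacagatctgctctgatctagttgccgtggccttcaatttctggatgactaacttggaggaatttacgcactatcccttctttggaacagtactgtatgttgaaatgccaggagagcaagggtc
The window holds 40.8% G and C, against 66.8% in that of Slc25a10 and 70.0% in that of Slc25a33. The 5 motifs were CACGTG (the E-box of clock factors), TGACGTCA, TCAAGGTCA (estrogen-related receptors), GCGC with any 2 bases before a second GCGC (NRF1) and AGGTCA with any 1 base before a second AGGTCA (PPAR), each on both strands.

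Slc25a1, which exports citrate for fatty acid and sterol synthesis, was the 1 member whose uninephrectomy effect differed between the strains. After uninephrectomy its lowest, median and highest values were 9.04, 9.23 and 9.35 in SBH/y, against 8.88, 8.97 and 9.13 in SBN/y. With both kidneys they were 8.97, 9.10 and 9.15 in SBH/y, against 9.02, 9.07 and 9.16 in SBN/y. Only the uninephrectomized groups stood apart, and they still overlapped. The uninephrectomy effect was 0.14 ± 0.05 in SBH/y and -0.12 ± 0.05 in SBN/y, neither past the threshold, and their difference 0.26 ± 0.07 (limma adjusted p = 0.0397). That call was lost when any of 18 arrays was left out, and the difference was 0.28 ± 0.10 (limma adjusted p = 1) without the 7 arrays apart in clock genes. The strain difference after uninephrectomy was 0.25 ± 0.05 (limma adjusted p = 0.000144), and 0.27 ± 0.09 (limma adjusted p = 0.132) without those 7 arrays.

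Slc25a20 carries acylcarnitines into the matrix for fatty acid oxidation. It was higher in SBH/y with both kidneys by 0.23 ± 0.07 (limma adjusted p = 0.0306), between 8.30 and 8.73 in SBH/y, against 8.05 to 8.47 in SBN/y, and the call was lost when any of 5 arrays was left out. Cpt1a, which forms acylcarnitines, was also higher in that comparison, by 0.49 ± 0.07. Slc25a11 was higher in SBH/y after uninephrectomy by 0.10 ± 0.03 (limma adjusted p = 0.0411), a call lost without any of 11 arrays, after quantile normalization (limma adjusted p = 0.121) and, at the same size of 0.10 ± 0.08, without the 7 arrays apart in clock genes (limma adjusted p = 0.68).

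Of the 8 carriers of amino acids, Slc25a15 was called. It exchanges ornithine and citrulline, which ties the mitochondrion to the urea cycle and to arginine metabolism. Its lowest, median and highest values were 9.87, 9.94 and 10.17 in sham-operated SBH/y, against 9.29, 9.56 and 9.68 in sham-operated SBN/y. After uninephrectomy they were 9.77, 9.89 and 10.08 in SBH/y, against 9.33, 9.47 and 9.70 in SBN/y. The strains did not overlap, with log2 differences of 0.47 ± 0.07 with both kidneys (limma adjusted p = 3.36e-06) and 0.42 ± 0.07 after uninephrectomy (limma adjusted p = 1.72e-05). With the 7 arrays apart in clock genes left out, the difference after uninephrectomy was 0.54 ± 0.14 (limma adjusted p = 0.0237).

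The 6 probe sets of Slc25a15 went different ways. The probe set of second highest mean differed by 0.43 ± 0.08 with both kidneys and 0.39 ± 0.08 after uninephrectomy, both called. The other 4, with means of 8.98, 8.85, 8.29 and 3.64, differed by between -0.07 and -0.01 with both kidneys and between -0.15 and -0.08 after uninephrectomy, none called. Averaged over its 6 probe sets, Slc25a15 differed by 0.13 with both kidneys (limma adjusted p = 0.108) and by 0.06 after uninephrectomy (limma adjusted p = 0.541). The strain difference thus stands for 2 of 6 probe sets, and where in the transcript each lies was not analysed here. As for Slc25a21, a variant under the probes and a difference in expression cannot be told apart between strains. Of the enzymes that use what these carriers move, Arg2, mitochondrial arginase, was lower in SBH/y by -0.41 ± 0.07 with both kidneys and -0.67 ± 0.07 after uninephrectomy. Cps1, which makes carbamoyl phosphate, was higher in SBH/y by 1.26 with both kidneys and by 1.67 ± 0.21 after uninephrectomy. When the 7 arrays were left out, the differences after uninephrectomy were -0.50 ± 0.14 for Arg2 and 1.24 ± 0.43 for Cps1.

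**Figure D4:**
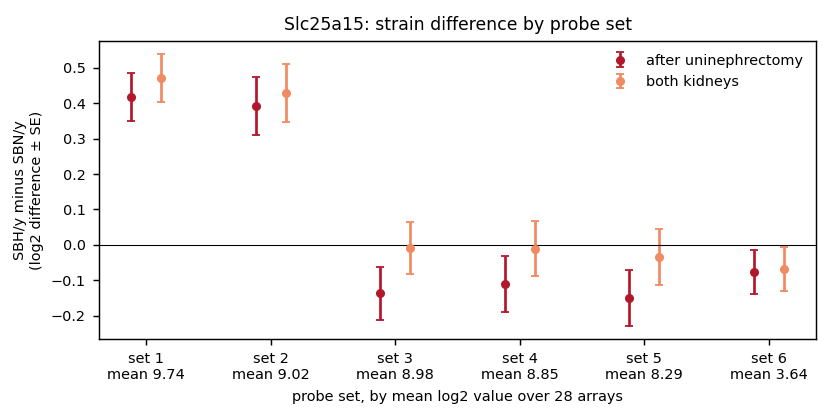
Log2 difference between SBH/y and SBN/y, with its standard error, for the 6 probe sets of Slc25a15 in order of mean value. Sets 1 and 2 lie near 0.4 in both states, and sets 3 to 6 lie between -0.15 and -0.01.

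The other 7 amino acid carriers were called in no comparison. The aspartate-glutamate carriers Slc25a12 and Slc25a13, which drive the malate-aspartate shuttle, differed by -0.07 ± 0.06 and -0.07 ± 0.04 between strains with both kidneys. After uninephrectomy in SBH/y they differed by -0.12 ± 0.06 and 0.12 ± 0.04. The glutamate carrier Slc25a22 differed by -0.09 ± 0.05 between strains with both kidneys, and the glycine carrier Slc25a38, known for its role in heme synthesis, by -0.00 ± 0.05. Slc25a29, a carrier of basic amino acids, differed by -0.11 ± 0.04 and Slc25a44, known from brown fat as a carrier of branched-chain amino acids, by 0.09 ± 0.07.

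Slc25a33 and Slc25a10 rose in SBH/y after uninephrectomy, and Slc25a30 fell, on arrays that also stood apart in clock genes. Slc25a33 imports pyrimidine nucleotides, and Slc25a10 exchanges malate or succinate for phosphate or sulfur anions. Slc25a30 was first described as a kidney mitochondrial carrier and is a relative of the uncoupling proteins. Slc25a33 had values of 7.42, 7.69 and 7.90 (lowest, median, highest) in uninephrectomized SBH/y, against 7.20, 7.24 and 7.50 in sham-operated SBH/y. The change was 0.37 ± 0.07 (limma adjusted p = 0.000386), and 0.12 ± 0.12 (limma adjusted p = 1) without the 7 arrays apart in clock genes.

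The lowest of the uninephrectomized SBH/y arrays for Slc25a33, at 7.42, was replicate 2, the array whose clock score was like that of sham-operated rats. Replicate 6 of uninephrectomized SBN/y, the 1 array of that group apart in clock genes, was its group's highest at 7.63, against 7.29 to 7.46 on the other 6. Slc25a10 showed the same order. Its values were 10.48 on replicate 2 and 10.62 to 10.97 on the other 6 uninephrectomized SBH/y arrays, and 10.80 on replicate 6 of uninephrectomized SBN/y against 10.55 to 10.67 on the rest of that group. Its change in SBH/y was 0.24 ± 0.06 (limma adjusted p = 0.00941), against -0.02 ± 0.09 (limma adjusted p = 1) without those 7 arrays. A second, dimmer Slc25a10 probe set differed by 0.22, not called. Between strains with both kidneys Slc25a10 lay between 10.46 and 10.55 in SBH/y, against 10.56 to 10.78 in SBN/y. These groups did not overlap, yet the difference of -0.16 ± 0.06 missed the threshold (limma adjusted p = 0.0654). The second probe set was lower in SBH/y by -0.33 ± 0.09 with both kidneys and -0.29 ± 0.09 after uninephrectomy, both called. After uninephrectomy the brighter probe set differed the other way, by 0.10 ± 0.06, not called.

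Slc25a30 was 9.52 on replicate 2 and between 9.26 and 9.38 on the other 6 uninephrectomized SBH/y arrays, against 9.41 to 9.60 in sham-operated SBH/y. Its change was -0.16 ± 0.05 (limma adjusted p = 0.0265), and 0.01 ± 0.09 (limma adjusted p = 1) without the 7 arrays. On replicate 6 of uninephrectomized SBN/y it was 9.52, inside the 9.48 to 9.69 of the other 6. Its second probe set was called in the same direction, by -0.26. After uninephrectomy Slc25a33 was higher in SBH/y than in SBN/y by 0.25 ± 0.07 (limma adjusted p = 0.00529) and Slc25a30 lower by -0.21 ± 0.05 (limma adjusted p = 0.000897). When the 7 arrays were left out, these were 0.03 ± 0.12 and -0.05 ± 0.09, neither called. How far clock phase accounts for these differences was not tested.

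**Figure D5:**
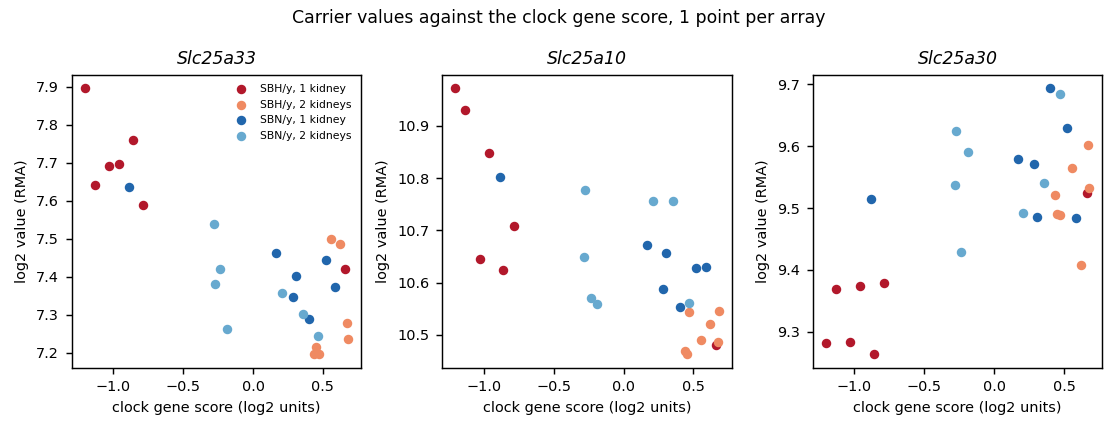
Log2 values of Slc25a33, Slc25a10 and Slc25a30 against the clock gene score, 1 point per array. The arrays with a score under -0.7 hold the high Slc25a33 values, most of the high Slc25a10 values and, in SBH/y, the low Slc25a30 values.

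The promoters of Slc25a33 and Slc25a10, 2 genes with extreme values on the arrays apart in clock genes, are shown. That of Slc25a30, whose lowest values also lay on such arrays, is not shown. Slc25a30 was not among the members with a match to any of the 5 motifs. They are the 250 bases before each start in RefSeq, at chr5:165502974-165503223 on the minus strand and chr10:106264146-106264395 on the plus strand of GRCr8. In Slc25a33 the capitals mark TGACGTCA, from 84 bases before the start, and the E-box CACGTG, from 61 bases before it. In Slc25a10 they mark 2 matches to the NRF1 motif given above, that of a factor of respiratory genes, from 89 and 65 bases before the start.
Slc25a33 promoter: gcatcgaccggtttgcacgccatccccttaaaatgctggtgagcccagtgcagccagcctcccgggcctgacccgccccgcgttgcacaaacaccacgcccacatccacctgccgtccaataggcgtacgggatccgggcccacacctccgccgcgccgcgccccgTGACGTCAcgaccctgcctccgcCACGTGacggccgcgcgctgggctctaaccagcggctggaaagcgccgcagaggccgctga
Slc25a10 promoter: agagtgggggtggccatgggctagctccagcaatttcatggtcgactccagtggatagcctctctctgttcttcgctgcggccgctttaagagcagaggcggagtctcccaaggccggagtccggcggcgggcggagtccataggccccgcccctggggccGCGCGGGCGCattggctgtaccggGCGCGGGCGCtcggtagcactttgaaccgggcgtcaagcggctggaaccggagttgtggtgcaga
CACGTG stands in 5.79% of 27457 promoters and in 2 of 34 member promoters, those of Slc25a33 and Slc25a31. The NRF1 motif stands in 5.3% of promoters and in 2 of 34, those of Slc25a10 and Slc25a12. The motifs of the estrogen-related receptors and of PPAR stand in 0.368% and 0.0546% of promoters and in 0 of 34 member promoters. RefSeq's table held 34 of the 39 members.

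The other carriers of iron, cofactors and pyrimidine nucleotides were called in no comparison. The mitoferrins Slc25a37 and Slc25a28, which import iron, differed by 0.09 ± 0.06 and -0.07 ± 0.04 between strains with both kidneys. Slc25a39, a glutathione carrier, differed by -0.11 ± 0.04 and Slc25a36, the second pyrimidine nucleotide carrier, by -0.12 ± 0.05. After uninephrectomy in SBH/y these 4 differed by between -0.10 and 0.08. Slc25a14, a relative of the uncoupling proteins, was higher in SBH/y after uninephrectomy by 0.16 ± 0.06 (limma adjusted p = 0.0479), a call lost without any of 20 arrays and, at 0.05 ± 0.12, without the 7 arrays apart in clock genes, while the dim Slc25a27 was called in no comparison.

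Of the remaining carriers, Slc25a35 and Slc25a34 moved in opposite directions. Slc25a35 had lowest, median and highest values of 6.54, 6.83 and 7.04 in uninephrectomized SBH/y, 6.37, 6.55 and 6.67 in sham-operated SBH/y, 6.91, 6.99 and 7.12 in uninephrectomized SBN/y and 6.78, 6.98 and 7.03 in sham-operated SBN/y. Sham-operated SBH/y lay below all SBN/y arrays, and the uninephrectomized SBH/y arrays spanned the gap. The strain difference was -0.42 ± 0.06 with both kidneys (limma adjusted p = 9.34e-06) and -0.19 ± 0.06 after uninephrectomy (limma adjusted p = 0.0353, and 0.0542 with arrays centred on their medians). In the fit that omits the 7 arrays apart in clock genes, the difference after uninephrectomy was -0.12 ± 0.10 (limma adjusted p = 0.725). Slc25a35 rose by 0.29 ± 0.06 after uninephrectomy in SBH/y (limma adjusted p = 0.0041), and the difference was 0.35 ± 0.10 without those 7 arrays (limma adjusted p = 0.609).

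Slc25a34 had lowest, median and highest values of 5.86, 6.31 and 6.57 in uninephrectomized SBH/y and 6.18, 6.66 and 6.80 in sham-operated SBH/y. They were 6.04, 6.26 and 6.62 in uninephrectomized SBN/y and 5.93, 6.13 and 6.42 in sham-operated SBN/y. Its median was highest in sham-operated SBH/y, whose range overlapped those of all other groups. After uninephrectomy the strains differed by -0.09 ± 0.11, not called. Slc25a34 was higher in SBH/y than in SBN/y with both kidneys by 0.41 ± 0.11 (limma adjusted p = 0.00624) and changed by -0.37 ± 0.11 after uninephrectomy in SBH/y (limma adjusted p = 0.0256). The call after uninephrectomy was lost without any of 6 arrays, and the change was -0.28 ± 0.20 (limma adjusted p = 1) without the 7 arrays apart in clock genes.

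Slc25a48 and Slc25a45 were both lower in SBH/y than in SBN/y after uninephrectomy, by -0.35 ± 0.10 (limma adjusted p = 0.00663) and -0.25 ± 0.09 (limma adjusted p = 0.0382). With the 7 arrays apart in clock genes left out, they were -0.53 ± 0.19 (limma adjusted p = 0.155) and -0.17 ± 0.15 (limma adjusted p = 0.721), so both calls were lost. With both kidneys in place the differences were -0.24 ± 0.10 for Slc25a48 and -0.20 ± 0.09 for Slc25a45, neither called. The second probe set of Slc25a48 was lower in SBH/y too, by -0.23 after uninephrectomy and -0.38 with both kidneys, both called. The Slc25a45 call was lost without any of 8 arrays and with arrays centred on their medians (limma adjusted p = 0.058). Slc25a46, an outer membrane member known for its part in mitochondrial shape, was higher in SBH/y with both kidneys by 0.15 ± 0.04 (limma adjusted p = 0.00391). It lay between 9.36 and 9.48 in SBH/y, against 9.17 to 9.36 in SBN/y, so the groups met without overlap, and its second probe set was also called, by 0.28. Slc25a53 was called in no comparison.

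Genes around the carriers were read from lists chosen for their place in the pathway. The counts below stand beside 21.5% of all genes called between strains with both kidneys and 26.8% after uninephrectomy. For uninephrectomy the shares of all genes were 10.4% in SBH/y and 0.605% in SBN/y. Whether a list departs from these shares was not tested. Of 16 genes of the import route, 2 were higher and 3 lower in SBH/y with both kidneys, among them Timm10 by 0.18 ± 0.04 and the outer membrane channel Tomm40 by -0.24 ± 0.04. After uninephrectomy the counts were 2 and 2, with the carrier receptor Tomm70 higher by 0.38 ± 0.08. Uninephrectomy was followed by 1 higher gene in SBH/y, Tomm40 at 0.16 ± 0.04, and 0 in SBN/y. In the fit that omits the 7 arrays apart in clock genes, 0 of the 16 were called after uninephrectomy between strains or for uninephrectomy in SBH/y. The median of the list was between -0.04 and 0.05 in the 5 comparisons.

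Of 20 genes of the tricarboxylic acid cycle and pyruvate dehydrogenase, SBH/y had 7 lower with both kidneys and 9 lower after uninephrectomy, with 0 higher. Their medians were -0.09 and -0.11, against -0.01 and 0.00 for all genes. Mdh2, which makes the oxaloacetate and malate that several carriers move, differed by -0.23 ± 0.04 and -0.19 ± 0.04, and Pdha1 of pyruvate dehydrogenase by -0.27 ± 0.04 after uninephrectomy. When the 7 arrays were left out, 1 of the 20 was lower after uninephrectomy, Pdha1 at -0.29 ± 0.08, and the median was -0.00. Of 13 regulators of mitochondrial biogenesis, 3 were higher and 4 lower with both kidneys and 1 higher and 3 lower after uninephrectomy. Ppargc1a, a coactivator of mitochondrial genes, was lower in SBH/y by -0.18 ± 0.04 with both kidneys and -0.38 ± 0.04 after uninephrectomy, and by -0.38 ± 0.10 in that state without the 7 arrays (limma adjusted p = 0.0219).

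Of 19 measured transporters of the mitochondrial membranes with other names, 2 were higher and 3 lower in SBH/y with both kidneys and 3 higher and 4 lower after uninephrectomy, or 0 and 0 in that state without the 7 arrays apart in clock genes. Abcb10 was higher by 0.72 ± 0.10 with both kidneys. Ucp1, the uncoupling protein of brown fat and a carrier of the same family under another name, was lower in SBH/y by -2.74 ± 0.38 with both kidneys. After uninephrectomy its strain difference was -0.42 ± 0.38, not called, and the difference between the strains' uninephrectomy effects was 2.33 ± 0.54 (limma adjusted p = 0.0222), or 1.90 ± 0.94 (limma adjusted p = 1) without the 7 arrays. Of 8 adipose markers, Ucp1 among them, 2 were lower in SBH/y with both kidneys and 1 higher, Lpl by 1.76. The mean of these 8 markers, each centred over all arrays, joins both directions. It lay between -0.26 and 0.12 in sham-operated SBH/y and between -0.36 and 0.81 in sham-operated SBN/y. The part of fat around the kidney in any carrier's value was not tested. Of 31 enzymes that use what the carriers move, 7 were higher and 6 lower in SBH/y with both kidneys and 9 higher and 9 lower after uninephrectomy, or 3 and 1 in that state without the 7 arrays. Mthfd2, a mitochondrial enzyme of folate metabolism, rose by 0.70 ± 0.09 after uninephrectomy in SBH/y, and the proline synthesis enzyme Aldh18a1 rose by 0.45 ± 0.08. When the 7 arrays were left out, these were 0.23 ± 0.12 and 0.34 ± 0.17, neither called.

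Markers of tubular injury and podocytes moved with uninephrectomy in SBH/y beside these carriers, in a comparison where 10.4% of all genes were called. Of 6 injury markers 4 were higher, with Havcr1 at 2.79 ± 0.23 and Spp1 at 0.86 ± 0.10, and of 5 podocyte markers all 5 were lower, with Wt1 at -0.55 ± 0.07. When the 7 arrays were left out, 1 injury marker was called, Havcr1 at 2.38 ± 0.32 (limma adjusted p = 0.00539), and 0 podocyte markers, with Wt1 at -0.28 ± 0.11. Of 10 proximal tubule markers 1 was higher and 0 lower, and the mean of the 10 lay between -0.03 and 0.11 in uninephrectomized SBH/y and between 0.00 and 0.06 in sham-operated SBH/y. Between strains with both kidneys, 4 of 6 thick ascending limb and 2 of 4 intercalated cell markers were lower in SBH/y. After uninephrectomy 5 of 6 and 4 of 4 were lower, and 0 were higher in either state. Proximal tubule markers were higher in 1 and 4 of 10, with 0 lower. Over all genes, 9.69% and 11.9% were called lower and 11.8% and 14.9% higher. Without the 7 arrays, the median thick ascending limb difference after uninephrectomy was -0.13, against -0.23. The part of these shifts in the carrier values was not tested.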

How the data were processed

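The authors deposited 1 table of log2 values, 1 value per probe set on each of 28 Affymetrix rat arrays, made with GCOS and RMA per the submitters' processing notes, and no version is named. RMA corrects background, quantile-normalizes probes and summarises probe sets, which hides differences in total RNA. No 2 arrays held identical values. After taking out 57 control probe sets, 31042 entered 1 limma fit (version 3.58.1, R 4.3.3, default eBayes) with a mean for each group over all 28 arrays. Benjamini-Hochberg adjustment ran over every probe set, and an adjusted p under 0.05 was a call. Of these, 20826 had 1 symbol, 436 several and 9780 none. All 39 members' names matched RefSeq's gene table (GRCr8) by gene identifier. Values after ± are standard errors of a log2 difference or the SD of 7 arrays for a mean.

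Tested on simulated data with changes placed in uninephrectomized SBH/y, the fit called 90 of 100 changes of 0.5 log2 units in the strain difference after uninephrectomy. Of 100 changes of 0.25 it called 41, over 31042 probe sets. The groups were otherwise simulated alike, whereas 6663 probe sets were called in the real comparison. The adjustment depends on that number, so these counts do not give the sensitivity of the real comparison. The text gives in full up to 6 called members with the largest rise and 6 with the largest fall per comparison, a panel chosen by substrate and up to 4 genes per pathway list. Members, lists and motifs were chosen with earlier results of these data known, and leaving out the 7 arrays apart in clock genes was added after seeing the data.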

Additional observations from a re-analysis of the deposited data

Results flagged for a closer look

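Of 156 combinations of a carrier and a group, 9 held an array that lay apart from the other 6 by Dixon's criterion, where chance flags about 1 in 20. Slc25a25 gave 2 of them, at 9.13 on replicate 4 of sham-operated SBH/y (others 8.47 to 8.76) and at 8.97 on replicate 1 of sham-operated SBN/y (others 7.34 to 7.84). On that same SBN/y array Slc25a3 was low at 12.24, against 12.37 to 12.45 on the other 6. Over all 14217 genes that array stood apart for 1.29%, against 0.45% to 2% for the other arrays of its group. In uninephrectomized SBN/y, Slc25a1 was 9.13 on replicate 4 (others 8.88 to 8.99), Slc25a14 was 6.69 on replicate 5 (others 6.26 to 6.44), Slc25a23 was 8.53 on replicate 7 (others 8.80 to 8.89) and Slc25a42 was 7.70 on replicate 2 (others 7.45 to 7.55). Slc25a37 was 6.84 on replicate 7 of sham-operated SBH/y (others 6.57 to 6.68). The dim Slc25a18 was 4.48 on replicate 5 of sham-operated SBN/y (others 4.17 to 4.26).

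The uninephrectomy effect of Slc25a1 differed between the strains by 0.26 log2 units, with limits on that call given in the report.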

How the results depend on the processing

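Without the 7 arrays apart in clock genes, 2 members instead of 13 differed between the strains after uninephrectomy, 0 instead of 6 followed uninephrectomy in SBH/y and 0 instead of 1 had an interaction, in a limma fit where the 1 uninephrectomized SBH/y array left is assumed to vary like the other groups. Calls over all probe sets fell in that setting as well, to 1199, 15 and 1. The change in SBH/y then turned sign for Slc25a10 (-0.0226) and Slc25a30 (0.00847). With only the 2 groups compared in the fit, 0 members were called for uninephrectomy in SBN/y. The interaction had 2 called members without the dimmest 40% of probe sets, with the replicate block and with the mean of a gene's probe sets. Leaving out 1 array at a time gave 8 to 12 members with both kidneys, 9 to 13 after uninephrectomy, 4 to 7 for uninephrectomy in SBH/y, 1 in SBN/y and 0 to 3 for the interaction, with 3 when replicate 2 of uninephrectomized SBH/y was left out. Restricting the fit to the groups compared was not run for the interaction, which uses all groups. Quantile normalization, median centring and trended variance kept these counts within 1.5 times. Replicate numbers are shared by the groups, but no batch is given in the labels, so the main fit did not use the numbers. Deviations correlated above 0.1 in 24 of 42 same-numbered pairs. The median correlation was 0.16 for same-numbered pairs, against -0.0314 for others, and 10 of 28 arrays correlated best with their own number. The replicate block raised the called probe sets in every comparison. They rose to 812, against 439, for the interaction and to 280, against 144, for uninephrectomy in SBN/y. For uninephrectomy in SBH/y they rose to 3500, against 2558. Between strains they rose to 6689, against 5570, with both kidneys and to 7567, against 6663, after uninephrectomy. With only the groups compared, the count for uninephrectomy in SBN/y was 60.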
